A study of Mus musculus with 24 samples.

Results

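The genes described here carry glucose into the cell, break it down to pyruvate and lactate, regulate the entry of both steps, and store or release glycogen. The set holds 32 gene symbols, chosen by name: 3 glucose transporters, 18 enzymes of glycolysis, 5 regulatory kinases and 6 enzymes of glycogen. Each gene was read from 1 probe set, the one with the highest mean over all 24 arrays. A probe set of its own was found for 28 of the 32, out of 18193 gene symbols on the array. Gpi1, Eno1 and Pfkfb1 had no probe set under that symbol in the annotation used, and Gapdh had 3 probe sets, each shared with other loci, so these 4 were not analysed here. A gene was tested in a tissue where its log2 expression was above 4 in at least 3 of the 12 arrays. This left 27 members of 9962 genes in the heart, where Aldoc stood at 1.78 to 1.85 on every array, and 28 members of 11600 genes in the lung.

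RNA of the left ventricle and of the lung was hybridised to Affymetrix arrays, 12 per tissue, in 4 groups of 3. The dnCREB mice carry a dominant negative CREB1 driven by the alpha myosin heavy chain promoter, which is active in cardiomyocytes, and the series is titled as a model of cardiac failure. The other animals are wild type (WT), and all are CD-1 mice labelled as male and 20 weeks old. The groups were dnCREB mice exposed to particulate matter (PM) of 1.9 µm at a dose of 20 mg/kg with organs collected 36 h later, dnCREB mice given phosphate-buffered saline (PBS), WT mice given PM and WT mice given PBS. The labels do not tie arrays to named animals, so p-values measure the spread between these samples. Values are log2 expression, compared within a tissue, since the array medians of the 2 tissues differ and their levels are not set against each other.

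The adult heart takes up glucose mainly through GLUT4 (Slc2a4), an insulin-responsive carrier, while GLUT1 (Slc2a1) is the carrier of the fetal heart and of most tissues at rest. Hexokinase traps glucose in the cell, phosphofructokinase commits it to glycolysis, and the PFKFB enzymes set the level of fructose 2,6-bisphosphate that activates phosphofructokinase. Many steps have a muscle isoform and one or more isoforms of other tissues, and a shift of the heart towards fetal isoforms is a known feature of cardiac hypertrophy and failure. CREB is a cyclic AMP-responsive transcription factor that binds the cyclic AMP response element (CRE), TGACGTCA, or its TGACG core.

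The transgene and the tissues were checked first. One Creb1 probe set read 9.05 to 11.44 in dnCREB PM hearts, against 2.51 to 2.86 in WT PM hearts. With PBS it read 9.18 to 12.00 in dnCREB hearts, against 2.75 to 3.29 in WT hearts. In the lung the same set read 3.34 to 3.98 in dnCREB and 3.34 to 4.29 in WT arrays. A second set read 8.42 to 10.43 in dnCREB PM hearts, against 5.75 to 6.73 in WT PM hearts. The other Creb1 sets were not higher in dnCREB hearts, with PM means such as 9.66, against 10.48, and 8.56, against 9.28. Of 13 cardiomyocyte markers 11 were tested in the heart, and the mean of the list was 12.97 to 13.17 in dnCREB PM, 12.88 to 13.20 in dnCREB PBS, 12.80 to 12.87 in WT PM and 12.60 to 12.93 in WT PBS hearts. The summed linear level of the cardiomyocyte list was 614338 to 702134 in dnCREB PM hearts, against 676199 to 743209 in WT PM hearts. With PBS it was 623859 to 685361 in dnCREB hearts, against 627729 to 759662 in WT hearts. Of the 11 tested, 9 had a difference below 0 with PM and 6 with PBS, and the highest differences were 2.75 and 3.25. Markers of lung epithelium averaged 14.02 to 14.55 over the 12 lung arrays and 2.32 to 2.96 over the 12 hearts. Against the label of male animals, 13 of the 24 arrays had high Xist, 9 had high Eif2s3y and 2 had neither. All 6 WT hearts had high Xist, and of the dnCREB hearts dnCREB PM replicate 3 alone did. Skeletal muscle genes were high on 5 lung arrays, which are given with the lung results.

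In the left ventricle, dnCREB hearts were compared with WT hearts by limma over the 4 groups. The threshold was a Benjamini-Hochberg adjusted p under 0.05 over all genes tested. Passing members numbered 10 of the 27 tested with PM and 8 with PBS, where 20.5% and 18.8% of all genes passed. Counted over either treatment, 12 members passed. The share of all genes that passed under either treatment was not counted, so the 12 have no background to be set against. One of the 12, GLUT3 (Slc2a3), was above log2 4 in dnCREB hearts alone and so could be tested at all only because it was high there; its values are given as a description. The platelet-type phosphofructokinase Pfkp and the phosphoglycerate mutase Pgam1 were higher in dnCREB hearts under both PM and PBS. GLUT4 (Slc2a4), the muscle phosphofructokinase Pfkm and the muscle glycogen phosphorylase Pygm were lower under both. Hk2, Eno3, Ldhb and Pfkfb2 were lower past the threshold with PM and not with PBS, and Gys1 and Phka1 with PBS and not with PM. With each array centred on its median, Hk2 (-0.59), Ldhb (-0.59) and Eno3 (-0.97) passed with PBS as well, Hk2 also with quantile normalisation (-0.48), Eno3 with array weights (-0.61) and Ldhb with a robust variance trend (adjusted p = 0.0255). Centring also ended the call of Pgam1 with PBS. The PBS calls of Pgam1 and Pygm were each lost in 5 of the 11 alternatives other than leaving out an array. Whether the effect of the genotype differed between PM and PBS was tested separately, and no member passed.

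With PM, 10 of 27 members (37.0%) passed, 3 higher and 7 lower, where 20.5% of all genes tested passed, 11.4% higher and 9.13% lower. With PBS, 8 of 27 (29.6%) passed, 3 higher and 5 lower, where 18.8% of all genes passed, 13.2% higher and 5.60% lower. Without Slc2a3 the counts were 9 of 26 with PM, 2 higher and 7 lower, and 7 of 26 with PBS, 2 higher and 5 lower. The 3 arrays of each genotype did not overlap for 8 members higher and 8 lower with PM, against 20.2% and 16.2% of all genes, and for 7 higher and 8 lower with PBS, against 25.8% and 16.9% of all genes. An unadjusted p under 0.05 was reached by 15 members with PM, against 34.0% of all genes, and by 14 with PBS, against 33.1%. Slc2a3, which passed the filter through the dnCREB hearts alone, is included in these counts under both treatments. It is among the members higher without overlap and among those with an unadjusted p under 0.05. The median difference of the members was -0.05 with PM, where that of all genes was 0.02, and -0.02 with PBS, where that of all genes was 0.09. The counts depended on the scaling of the arrays. Centring each array on its median gave 3 higher and 7 lower with PM and 2 higher and 8 lower with PBS, and quantile normalisation gave 5 higher and 6 lower with PM and 4 higher and 6 lower with PBS. Over all genes the split was 1132 higher and 910 lower with PM as deposited, against 1013 and 1353 centred and 1092 and 1338 quantile-normalised. With PBS it was 1311 higher and 558 lower as deposited, against 918 and 1187 centred and 1044 and 1213 quantile-normalised. Centring moved the median difference of all genes by -0.11 with PM and -0.22 with PBS, and quantile normalisation by -0.10 and -0.17.

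**Figure D1:**
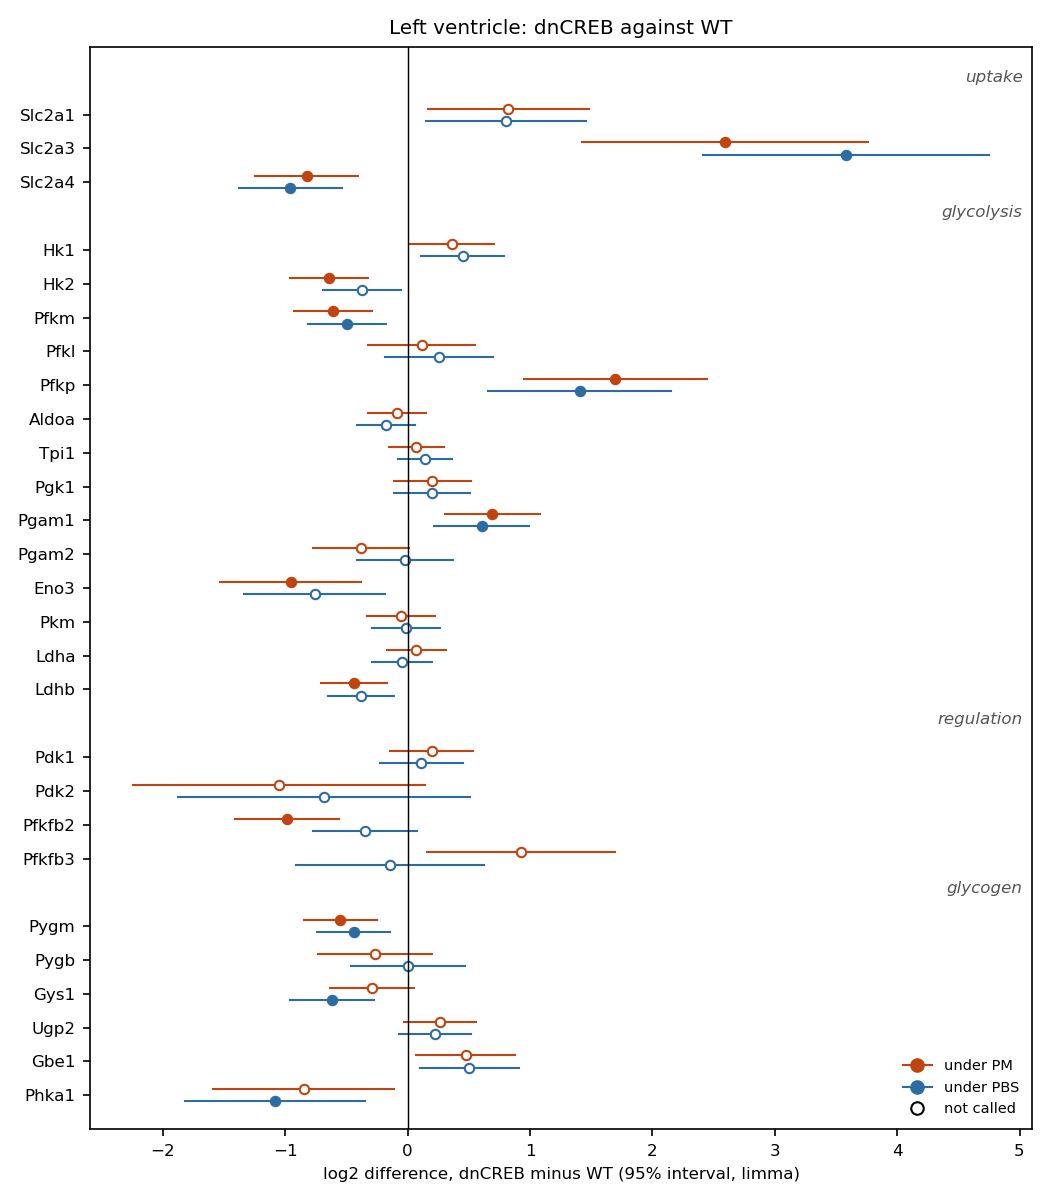
Log2 difference of dnCREB minus WT left ventricles for the 27 members tested, with 95% intervals from limma, with PM (red) and with PBS (blue), 3 arrays per group; filled points passed the adjusted p threshold of 0.05 and open points did not. Pfkp (1.70 with PM and 1.41 with PBS) and Pgam1 lie on the right under both treatments and Slc2a4, Eno3, Pfkfb2, Pdk2 and Phka1 on the left, while Ldha, Pkm, Tpi1 and Aldoa lie near 0; the points of Slc2a3 are fitted values over WT hearts below log2 4.

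Among the transporters, GLUT4 was the lower one. Slc2a4 stood at 12.53, 12.13 and 11.74 in dnCREB PM hearts, against 13.09, 12.98 and 12.81 in WT PM hearts. It stood at 12.03, 12.21 and 11.77 in dnCREB PBS hearts, against 12.94, 12.94 and 13.01 in WT PBS hearts. All 6 dnCREB hearts were below all 6 WT hearts. The difference was -0.83 ± 0.19 (SE, limma) with PM, a ratio of 0.564 (adjusted p = 0.0127), and -0.96 ± 0.19 with PBS, a ratio of 0.515 (adjusted p = 0.0065). A second Slc2a4 probe set gave -0.88 with PM and -1.27 with PBS. In a fit of the compared groups alone the PM difference did not pass (adjusted p = 0.0633). In bulk tissue, fewer cells of a type and less RNA per cell cannot be told apart, here or for any gene below.

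GLUT3, a high-affinity carrier known from neurons and white blood cells, was near the bottom of the scale in WT hearts. Slc2a3 read 4.97, 3.32 and 4.36 in dnCREB PM hearts, against 1.79, 1.57 and 1.50 in WT PM hearts. It read 6.08, 6.36 and 4.34 in dnCREB PBS hearts, against 1.59, 2.45 and 1.98 in WT PBS hearts. Every dnCREB heart was above every WT heart, 5 of the 6 dnCREB hearts passed log2 4, and no WT heart did. Set against log2 4 as the floor, Slc2a3 was at least 1.16-fold higher with PM and at least 3.01-fold higher with PBS. No test between the genotypes is given, since it passed the filter through the dnCREB hearts. GLUT1 had 12.61, 12.10 and 11.98 in dnCREB PM hearts, against 11.43, 10.95 and 11.85 in WT PM hearts, and 11.88, 11.79 and 12.80 in dnCREB PBS hearts, against 11.28, 11.37 and 11.41 in WT PBS hearts. The dnCREB arrays of Slc2a1 lay above the WT arrays in both comparisons, by 0.82 ± 0.30 with PM and 0.80 ± 0.30 with PBS, and neither difference passed the threshold (adjusted p = 0.076 and 0.086), though with quantile normalisation Slc2a1 passed with PM at 0.81.

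**Figure D2:**
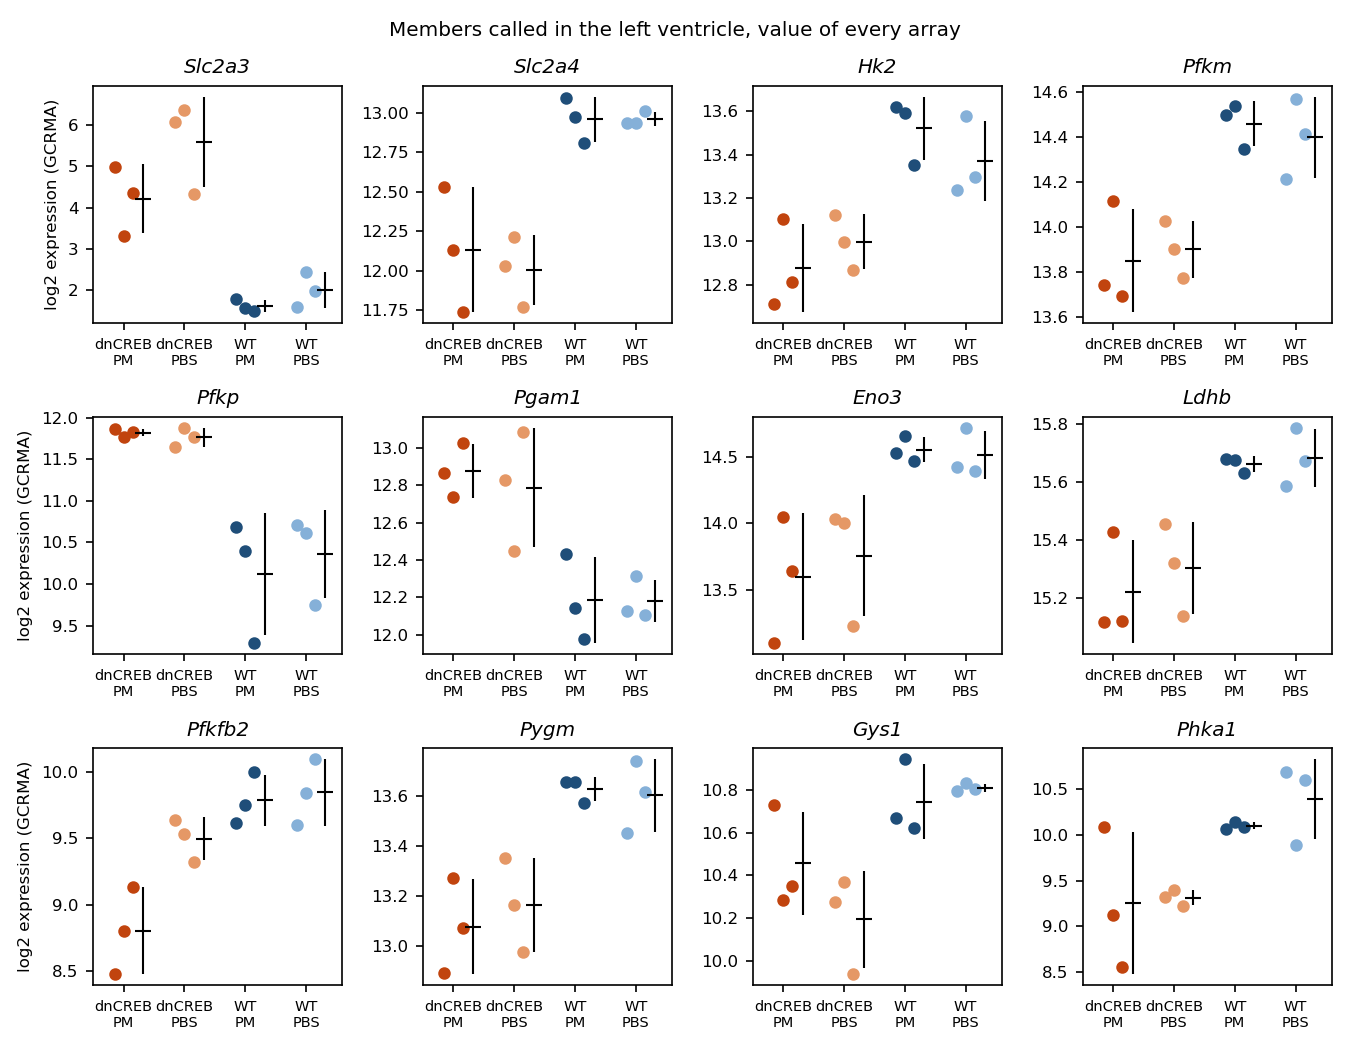
Log2 expression (GCRMA) of the 12 members that passed in the left ventricle, 1 point per array in dnCREB PM, dnCREB PBS, WT PM and WT PBS hearts, with the mean and SD of 3 arrays beside the points; each panel has its own vertical scale, which does not start at 0. The dnCREB hearts of Slc2a4 (11.74 to 12.53) lie below the WT hearts (12.81 to 13.09), and those of Pfkp (11.65 to 11.88) above them (9.29 to 10.71).

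Of 14 glycolytic enzymes tested, 2 were higher in dnCREB hearts in each comparison, and 4 were lower with PM and 1 with PBS. Over all genes 11.4% were higher and 9.13% lower with PM, and 13.2% and 5.60% with PBS, so that 2 of 14 higher is close to the share of all genes. Phosphofructokinase showed isoforms that moved in opposite directions. Pfkp read 11.86, 11.77 and 11.83 in dnCREB PM hearts, against 10.69, 10.39 and 9.29 in WT PM hearts. With PBS it read 11.65, 11.88 and 11.77 in dnCREB hearts, against 10.71, 10.62 and 9.75 in WT hearts. The dnCREB hearts were close together and all above the WT hearts, which were more spread. Pfkp was 3.24-fold higher with PM (1.70 ± 0.34, adjusted p = 0.0069) and 2.65-fold higher with PBS (1.41 ± 0.34, adjusted p = 0.0167). Pfkm, the muscle isoform, read 13.74, 14.11 and 13.70 in dnCREB PM hearts, against 14.50, 14.54 and 14.35 in WT PM hearts. In PBS hearts it read 14.03, 13.90 and 13.77 in dnCREB hearts, against 14.21, 14.57 and 14.41 in WT hearts. The genotypes did not overlap, and Pfkm differed by -0.61 ± 0.14 with PM (adjusted p = 0.0144) and -0.50 ± 0.14 with PBS (adjusted p = 0.036). The liver isoform Pfkl differed by 0.11 and 0.26 and did not pass. With the mean of its 3 probe sets, Pfkp differed by 0.66 with PBS and did not pass (adjusted p = 0.125). Without WT PBS replicate 3 the PBS difference of Pfkp was 1.10 (adjusted p = 0.0616), and without dnCREB PBS replicate 3 that of Pfkm was -0.43 (adjusted p = 0.127).

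Hexokinase 2 (Hk2), the insulin-responsive hexokinase of muscle, stood at 12.71, 13.10 and 12.81 in dnCREB PM hearts, against 13.62, 13.59 and 13.35 in WT PM hearts. With PBS it stood at 13.12, 13.00 and 12.87 in dnCREB hearts, against 13.24, 13.58 and 13.30 in WT hearts. No dnCREB heart reached the WT range of its treatment. Hk2 differed by -0.64 ± 0.14 with PM (adjusted p = 0.0115) and by -0.37 with PBS, which did not pass (adjusted p = 0.098). The ubiquitous hexokinase Hk1 differed by 0.36 with PM (adjusted p = 0.122) and by 0.45 with PBS (adjusted p = 0.068). Neither of these passed, though quantile normalisation put Hk1 past the threshold with PM.

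In the lower part of glycolysis, Pgam1, the phosphoglycerate mutase of most tissues, was the member that rose. It read 12.87, 12.74 and 13.03 in dnCREB PM hearts, against 12.43, 12.14 and 11.98 in WT PM hearts. Under PBS the values were 12.83, 12.45 and 13.09 in dnCREB hearts, against 12.12, 12.31 and 12.11 in WT hearts. The groups did not overlap, and the difference was 0.69 ± 0.17 with PM (adjusted p = 0.0199) and 0.61 ± 0.17 with PBS (adjusted p = 0.0365). The muscle mutase Pgam2 differed by -0.38 with PM (adjusted p = 0.160) and -0.02 with PBS. Eno3, the muscle enolase, read 13.10, 14.05 and 13.64 in dnCREB PM hearts, against 14.53, 14.66 and 14.47 in WT PM hearts. With PBS it read 14.03, 14.01 and 13.23 in dnCREB hearts, against 14.42, 14.72 and 14.40 in WT hearts. Again no dnCREB heart reached the WT range; the difference of -0.96 ± 0.26 with PM passed (adjusted p = 0.0274) and that of -0.76 with PBS did not (adjusted p = 0.069).

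Lactate dehydrogenase is a tetramer of the heart-type subunit Ldhb and the muscle-type subunit Ldha. Ldhb read 15.12, 15.43 and 15.12 in dnCREB PM hearts, against 15.68, 15.68 and 15.63 in WT PM hearts. In the PBS groups it read 15.46, 15.32 and 15.14 in dnCREB hearts, against 15.59, 15.79 and 15.67 in WT hearts. The dnCREB hearts lay lower without overlap; the difference of -0.44 ± 0.12 with PM passed (adjusted p = 0.0288) and that of -0.38 with PBS did not (adjusted p = 0.0546). The other 3 Ldhb probe sets gave differences of -0.57, -0.51 and -0.47 with PM and -0.62, -0.57 and -0.54 with PBS. Ldha differed by 0.07 with PM (95% interval -0.17 to 0.32) and by -0.05 with PBS (95% interval -0.29 to 0.20). Aldoa, Tpi1, Pgk1 and Pkm, which catalyse steps between fructose 1,6-bisphosphate and pyruvate, differed by -0.18 to 0.20 in the 2 comparisons. The PM calls of Eno3 and Ldhb each ended in 5 of 12 fits that left out 1 heart, with adjusted p of 0.0595 to 0.0843 for Eno3 and 0.0640 to 0.0910 for Ldhb. The call of Pgam1 with PBS ended without any of 5 hearts (adjusted p of 0.0571 to 0.137), and with PM without any of 3 (0.0589 to 0.0721).

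Of the 4 regulators tested, 1 passed with PM and 0 with PBS, where 20.5% and 18.8% of all genes passed. Pfkfb2, the cardiac isoform of the enzyme that makes and removes fructose 2,6-bisphosphate, read 8.48, 8.80 and 9.13 in dnCREB PM hearts, against 9.62, 9.75 and 10.00 in WT PM hearts. Under PBS the values were 9.64, 9.53 and 9.32 in dnCREB hearts, against 9.60, 9.84 and 10.10 in WT hearts. The groups were apart with PM and overlapped with PBS. The difference was -0.99 ± 0.19 with PM (adjusted p = 0.0062) and -0.35 ± 0.19 with PBS (adjusted p = 0.227). With the mean of all 4 Pfkfb2 probe sets the PM difference was -0.66 and did not pass (adjusted p = 0.0821). The inducible isoform Pfkfb3 differed by 0.93 with PM (adjusted p = 0.0848) and by -0.14 with PBS. Pdk1 and Pdk2, kinases that switch off pyruvate dehydrogenase, did not pass; Pdk2 differed by -1.05 with PM (adjusted p = 0.199) and -0.69 with PBS (adjusted p = 0.401), with a wide spread in both genotypes.

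Of the 6 enzymes of glycogen, 1 was lower with PM, 3 were lower with PBS and none was higher past the threshold, where 9.13% of all genes were lower with PM and 5.60% with PBS. Pygm, the muscle phosphorylase that releases glucose 1-phosphate from glycogen, read 12.89, 13.27 and 13.07 in dnCREB PM hearts, against 13.66, 13.66 and 13.57 in WT PM hearts. With PBS it read 13.35, 13.16 and 12.98 in dnCREB hearts, against 13.45, 13.74 and 13.62 in WT hearts. All 6 dnCREB hearts were below all 6 WT hearts, with a difference of -0.55 ± 0.14 with PM (adjusted p = 0.0174) and -0.44 ± 0.14 with PBS (adjusted p = 0.0460). Phka1, the muscle alpha subunit of the kinase that activates phosphorylase, read 10.09, 9.12 and 8.55 in dnCREB PM hearts, against 10.07, 10.15 and 10.09 in WT PM hearts. In PBS hearts it read 9.32, 9.40 and 9.23 in dnCREB hearts, against 10.70, 9.90 and 10.60 in WT hearts. One dnCREB PM heart lay within the WT range, and the difference was -0.85 with PM (adjusted p = 0.0987) and -1.08 ± 0.33 with PBS (adjusted p = 0.0457).

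Gys1, the muscle glycogen synthase that builds glycogen, read 10.73, 10.29 and 10.35 in dnCREB PM hearts, against 10.67, 10.95 and 10.62 in WT PM hearts. Under PBS the values were 10.28, 10.37 and 9.94 in dnCREB hearts, against 10.80, 10.83 and 10.80 in WT hearts. The PBS groups stood apart and the PM groups overlapped. Gys1 differed by -0.29 with PM (adjusted p = 0.221) and by -0.62 ± 0.16 with PBS (adjusted p = 0.0206). A second Gys1 probe set gave -0.50 with PM and -1.77 with PBS. Pygb, Ugp2 and Gbe1 did not pass; Gbe1, the branching enzyme, differed by 0.48 with PM (adjusted p = 0.0922) and 0.50 with PBS (adjusted p = 0.0816). The PBS calls of Pygm and Phka1 each ended in 9 of 12 fits without 1 heart, and that of Gys1 in 4, where without dnCREB PBS replicate 3 it was -0.49 (adjusted p = 0.0809). The PM call of Pygm ended without dnCREB PM replicate 1, where the difference was -0.46 (adjusted p = 0.0584), and without either of 2 other hearts.

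Because the transgene is a form of a CRE-binding factor, the 250 bases before each gene start were searched for 4 motifs on both strands, in RefSeq promoter windows of GRCm38.p6; the TGACG core lies within TGACGTCA, and ACGTG, the core of hypoxia-response elements, lies within the E-box CACGTG. Windows were found for 30 of the 32 symbols, and Slc2a3 and Slc2a4 had none. A full TGACGTCA stood in 1 of 30 (Ldha), where 1.77% of 27018 genes held it. TGACG stood in 5 of 30 (Hk2, Ldha, Pfkfb2, Pfkfb3 and Pygb), where 19.8% of genes held it. ACGTG stood in 14 of 30 and CACGTG in 5 (Ldha, Pdk2, Pfkfb2, Pfkfb3 and Pfkm), where 18.5% and 6.86% of genes held them. A gene was counted where any of its windows held the motif. The 30 members had 50 windows and the 27018 genes had 32841, so the members had more windows per gene in which to match. The windows of Ldha, which has the full CRE, and of Hk2 and Pfkfb2, the members that passed in the heart and hold the core, are given 5′ to 3′ on the strand of the gene, with the CRE letters in capitals. In Ldha (chr7:46845554-46845803, plus strand) TGACGTCA lies 12 to 5 bases before the start. In Hk2 (chr6:82774455-82774704, minus strand) CGTCA, the core read on the other strand, lies 50 to 46 bases before the start. In Pfkfb2 (chr1:130715822-130716071, minus strand) TGACG lies 52 to 48 bases before the start and the E-box CACGTG, in lower case, 22 to 17.
Ldha: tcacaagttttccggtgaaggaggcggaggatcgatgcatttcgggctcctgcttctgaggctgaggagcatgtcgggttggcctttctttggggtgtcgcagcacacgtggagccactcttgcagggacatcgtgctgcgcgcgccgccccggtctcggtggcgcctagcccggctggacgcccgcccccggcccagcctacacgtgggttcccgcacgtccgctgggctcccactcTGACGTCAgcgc
Hk2: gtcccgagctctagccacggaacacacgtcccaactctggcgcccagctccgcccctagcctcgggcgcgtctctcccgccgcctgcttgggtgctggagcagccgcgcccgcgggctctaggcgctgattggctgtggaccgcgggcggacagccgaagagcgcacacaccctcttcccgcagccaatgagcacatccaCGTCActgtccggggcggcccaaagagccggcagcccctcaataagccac
Pfkfb2: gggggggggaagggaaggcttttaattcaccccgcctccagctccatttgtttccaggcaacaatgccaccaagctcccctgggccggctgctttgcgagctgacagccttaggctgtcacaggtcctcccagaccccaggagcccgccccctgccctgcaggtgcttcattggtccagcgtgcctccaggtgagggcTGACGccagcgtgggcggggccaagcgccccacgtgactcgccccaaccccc
Hk2 and Pfkfb2 are shown because they passed, both lower in dnCREB PM hearts. The other members with the core, Ldha with the full element, Pfkfb3 and Pygb, passed in neither comparison. Whether the motifs go with the calls was not tested. The motifs are matches of letters and not measured binding sites.

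The other genes of glucose handling were read from 4 further lists of 73 genes, of which 50 were tested in the heart. With PM 18 of 50 (36%) passed, 6 higher and 12 lower, and with PBS 16 of 50 (32%), 8 higher and 8 lower, where 20.5% and 18.8% of all genes passed. Without 5 genes that had fewer than 3 hearts above log2 4 in 1 of the genotypes, among them Eno2, Pdk3 and Slc2a12, the counts were 15 of 45 with PM and 13 of 45 with PBS. Among 7 further genes of uptake and glycolysis, 3 passed with PM and 2 with PBS. Both counts include Eno2 and Slc2a12, which passed the filter through 1 genotype. Eno2, the neuronal enolase, read 10.2, 7.38 and 8.87 in dnCREB PM hearts, against 4.25, 3.40 and 2.89 in WT PM hearts. With PBS it read 7.13, 7.68 and 8.68 in dnCREB hearts, against 3.02, 2.73 and 2.92 in WT hearts. The genotypes did not overlap, and 1 of 6 WT hearts was above log2 4, so that Eno2 passed the filter through the dnCREB hearts and is given with no test; with PBS it was at least 14.2-fold higher. Slc2a12, a carrier of the GLUT family known from heart and muscle, read 3.51, 3.54 and 3.48 in dnCREB PM hearts, against 5.90, 5.11 and 4.32 in WT PM hearts. With PBS it read 3.59, 3.55 and 3.50 in dnCREB hearts, against 4.46, 5.44 and 4.57 in WT hearts. It was above log2 4 in WT hearts alone and is given with no test as well. Ldhd, the D-lactate dehydrogenase, differed by -2.41 with PM (adjusted p = 0.0087).

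Among 16 regulators of insulin signalling and pyruvate entry, 2 were higher and 7 lower with PM, and 2 were higher and 4 lower with PBS. The shares over all genes were 11.4% higher and 9.13% lower with PM, and 13.2% and 5.60% with PBS. The 2 higher in each comparison include Pdk3, which passed the filter through the dnCREB hearts alone. Irs1, the insulin receptor substrate, read 10.50, 10.37 and 10.12 in dnCREB PM hearts, against 11.85, 11.48 and 11.87 in WT PM hearts. In the PBS groups it read 10.03, 10.56 and 10.44 in dnCREB hearts, against 11.83, 11.86 and 11.53 in WT hearts. The genotypes were apart by nearly the same amount under both treatments, -1.41 with PM and -1.40 with PBS (adjusted p = 7.1e-04 in both). Tbc1d4, the Rab regulator that holds GLUT4 vesicles back from the surface until it is phosphorylated by Akt, differed by -1.58 with PM (adjusted p = 0.0019) and -1.37 with PBS (adjusted p = 0.0039). The insulin-signalling kinase Akt2 differed by -1.02 with PM (adjusted p = 0.0029) and -0.74 with PBS (adjusted p = 0.0136), and Prkaa2, a catalytic subunit of AMP-activated kinase, by -0.70 with PM (adjusted p = 0.0013) and -0.53 with PBS (adjusted p = 0.0052). Hif1a, the hypoxia-inducible factor subunit, was higher by 1.18 with PM (adjusted p = 0.0039) and 1.38 with PBS (adjusted p = 0.0016). Pdk3, a pyruvate dehydrogenase kinase singled out after its values were seen and above log2 4 in dnCREB hearts alone, was at least 6.72-fold higher with PM and at least 5.55-fold higher with PBS, and read 5.17 to 7.72 in dnCREB hearts, against 3.68 to 3.76 in WT hearts.

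Among 16 further glycogen genes, 2 were higher and 3 lower with PM, and 3 were higher and 3 lower with PBS. Of all genes, 11.4% were higher and 9.13% lower with PM, and 13.2% and 5.60% with PBS. The subunits that bring protein phosphatase 1 to glycogen did not move together. Ppp1r3d differed by -1.83 with PM (adjusted p = 0.0016) and -1.26 with PBS (adjusted p = 0.0096). Ppp1r3b differed by -1.08 with PM (adjusted p = 0.0048) and -0.73 with PBS (adjusted p = 0.0301). Ppp1r3c was higher, by 1.02 with PM (adjusted p = 0.0111) and 1.13 with PBS (adjusted p = 0.0067). Phkg1, the muscle catalytic subunit of phosphorylase kinase, differed by -2.28 with PM (adjusted p = 0.0075), and Gyg, the gene of glycogenin, the protein on which glycogen is started, by 0.75 with PBS (adjusted p = 0.0291). Among 11 genes of the pentose and hexosamine routes, 1 was higher with PM and 2 with PBS, close to the shares of all genes. Gfpt2 differed by 1.59 with PM (adjusted p = 0.0170), and Gnpnat1 by 1.25 (adjusted p = 0.0029) and Tkt by 0.74 (adjusted p = 0.0062) with PBS.

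**Figure D3:**
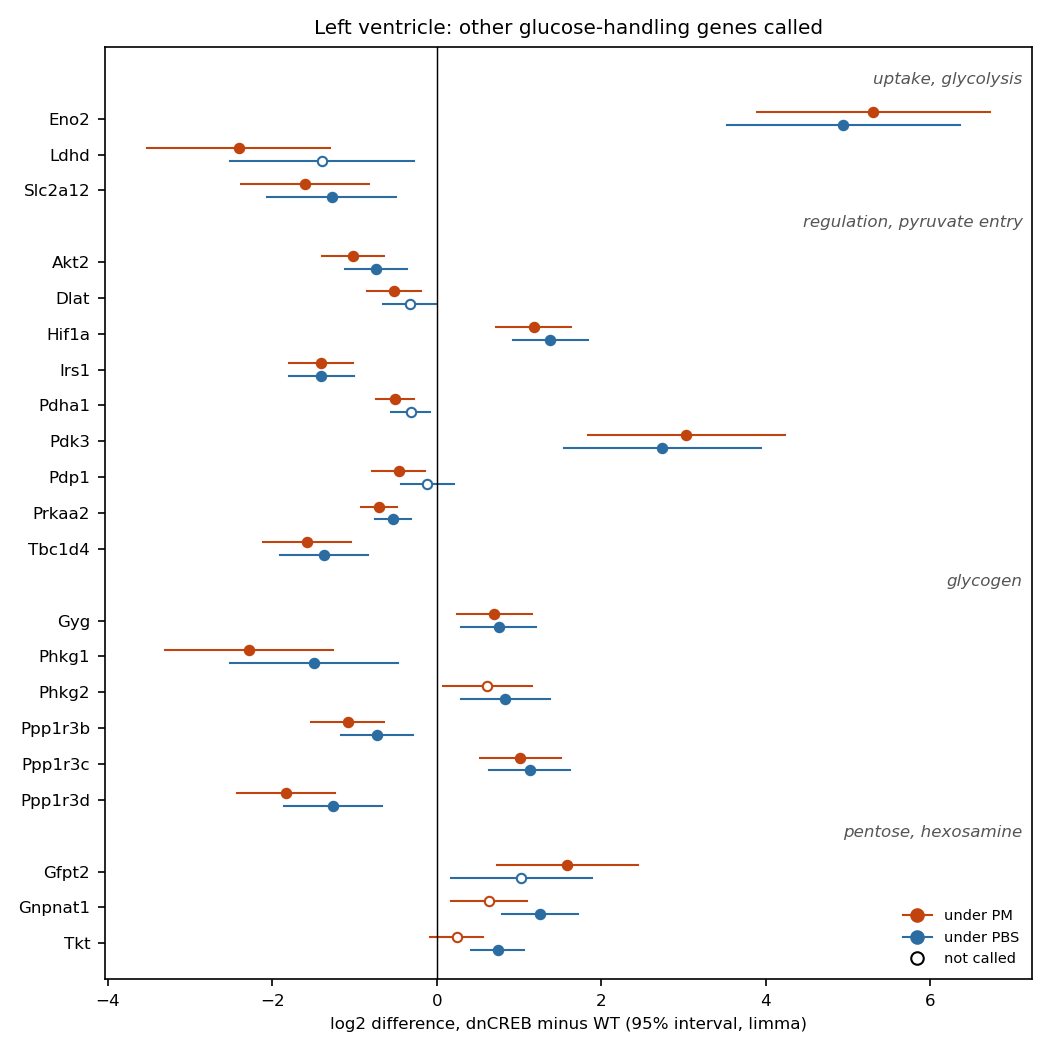
Log2 difference of dnCREB minus WT left ventricles, with 95% intervals from limma, for the other glucose-handling genes that passed with PM (red) or with PBS (blue), 3 arrays per group; filled points passed and open points did not. Hif1a and Ppp1r3c lie on the right and Irs1, Tbc1d4, Akt2 and Prkaa2 on the left under both treatments; the points of Eno2, Pdk3 and Slc2a12 are fitted values with 1 genotype at or below log2 4 in nearly all hearts.

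Fibroblast and matrix markers, and macrophage markers with PM, were higher in the same dnCREB hearts. As a background, 11.4% of all genes were higher and 9.13% lower with PM, and 13.2% and 5.60% with PBS. Of 8 fibroblast and matrix genes, 6 were higher in both comparisons, and the summed linear level of the list was 61703 to 148615 in dnCREB PM hearts, against 31817 to 38141 in WT PM hearts, and 90018 to 105548 in dnCREB PBS hearts, against 31809 to 35996 in WT PBS hearts. Of 11 macrophage genes tested, 8 were higher with PM and 1 with PBS. The summed level of that list was 39538 to 43466 in dnCREB PM hearts, against 9699 to 16418 in WT PM hearts, and 25874 to 49033 in dnCREB PBS hearts, against 13609 to 39184 in WT PBS hearts. Of the 11 cardiomyocyte markers tested, 1 was higher and 2 lower with PM, and 2 were higher and 1 lower with PBS. With 11 genes per list, these counts and the macrophage count with PBS are close to the shares of all genes. Of 7 endothelial and 2 neutrophil genes tested, 0 passed in either comparison. The summed levels of the endothelial and neutrophil lists were highest in dnCREB PM replicate 1, at 24192 and 13916. The part of these cells in the differences of the glucose genes was not tested.

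The sex-chromosome genes also differed with the genotype. In dnCREB PM replicate 3, the dnCREB heart with high Xist, all 12 members that passed lay beyond all 6 WT hearts on the same side as the call. For example, Slc2a4 stood at 11.74 in that heart, against 12.81 to 13.09 in WT hearts, Pfkp at 11.83, against 9.29 to 10.71, and Pfkm at 13.70, against 14.21 to 14.57. This is a description, since that heart was part of the PM comparison, in which 10 of the 12 passed, and Slc2a3 is among the 12. The share of all genes that passed and lay beyond the WT hearts in the same way was not counted. The 12 therefore have no background to be set against. With high Xist as a covariate, which rests on that 1 heart, 3 members passed with PM (Slc2a4 -1.22, Pfkm -0.76 and Phka1 -1.55) and 2 with PBS (Slc2a4 -1.55 and Phka1 -2.14). The share of all genes that passed with this covariate is not given here.

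PM itself moved no member past the threshold in the heart. In dnCREB hearts 0 of 27 passed, where 0% of all genes did, and an unadjusted p under 0.05 was reached by 2 members and 4.92% of all genes. The treatments were apart for 1 of 27 members, where 7.48% of all genes were. This was Pfkfb2, which was 8.48, 8.80 and 9.13 in dnCREB PM hearts, against 9.64, 9.53 and 9.32 in dnCREB PBS hearts, a difference of -0.69 ± 0.19 (adjusted p = 0.966). Slc2a3 differed by a fitted -1.37 with overlap (adjusted p = 0.966), where dnCREB PM replicate 2 read 3.32, below the limit of log2 4. Gys1 differed by 0.26 (adjusted p = 0.966). In WT hearts 0 of 27 passed, where 0.0100% of all genes did, 0 had an unadjusted p under 0.05, where 1.47% of all genes had, and 2 did not overlap, where 5.44% did not. The 3 members with the smallest p there were Pfkfb3 at -0.49, Ugp2 at -0.16 and Hk2 at 0.15, each with an adjusted p of 1.00. The interaction of genotype and PM passed for 0 of 27, where 0% of all genes passed, and an unadjusted p under 0.05 was reached by 3.62% of all genes and 1 member, Pfkfb2 (-0.64, 95% interval -1.24 to -0.04, adjusted p = 0.980).

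In the lung, no member passed in any of the 5 comparisons. High Xist was found in 3 of 3 dnCREB PM, 1 of 3 dnCREB PBS, 2 of 3 WT PM and 0 of 3 WT PBS lungs, so it was more frequent with PM in both genotypes. WT PM replicate 2 and WT PBS replicate 1 stood apart, with a median correlation with the other lungs of 0.97 each, against 0.985 to 0.989 for the other 10; the first had the highest mean of neutrophil genes (10.93) and the second the lowest of endothelial genes (10.12). The alpha myosin heavy chain promoter that drives the transgene is one of cardiomyocytes, whose marker list averaged 8.20 to 10.81 on the lung arrays. The bearing of the promoter on the lung results was not tested. In WT lungs given PM against those given PBS, 0 of 28 members passed, where 2.39% of all genes did, and 11 of 28 (39.3%) had an unadjusted p under 0.05, where 26.3% of all genes had. PM and PBS arrays did not overlap for 9 members higher (32.1%) and 1 lower (3.57%), where the shares over all genes were 17.4% and 9.09%. The difference was above 0 for 24 of 28 members, with a median of 0.56, where that of all genes was 0.11. Centring moved the median of all genes by -0.14 and quantile normalisation by -0.13, and 0 members passed under either. The median of the members was 0.33 without WT PM replicate 2, 0.40 without WT PBS replicate 1, 0.25 with array weights and 0.88 with Xist as a covariate, under which 4 members passed. By role, the median was 1.01 over the transporters, 0.67 over glycolysis, 0.50 over the regulators and 0.15 over glycogen.

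The 3 members with the smallest p in WT lungs were Slc2a1, Aldoc and Pfkl. Slc2a1 read 9.67, 10.10 and 9.57 in WT PM lungs, against 8.63, 8.61 and 9.07 in WT PBS lungs. All WT PM lungs were above all WT PBS lungs, by 1.01 ± 0.24 (adjusted p = 0.0523). Aldoc, the brain-type aldolase, read 5.40, 7.36 and 5.89 in WT PM lungs, against 4.90, 5.02 and 4.57 in WT PBS lungs, with 1 PM lung far above the others (1.39 ± 0.40, adjusted p = 0.0771). Pfkl, the liver-type phosphofructokinase, read 8.74, 9.31 and 8.87 in WT PM lungs, against 7.28, 8.34 and 8.28 in WT PBS lungs, again without overlap (1.01 ± 0.31, adjusted p = 0.0899). Pfkfb2 was the member that lay lower without overlap, at 7.18, 6.84 and 7.61 in WT PM lungs, against 8.05, 7.82 and 7.75 in WT PBS lungs (-0.66, adjusted p = 0.0964).

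**Figure D4:**
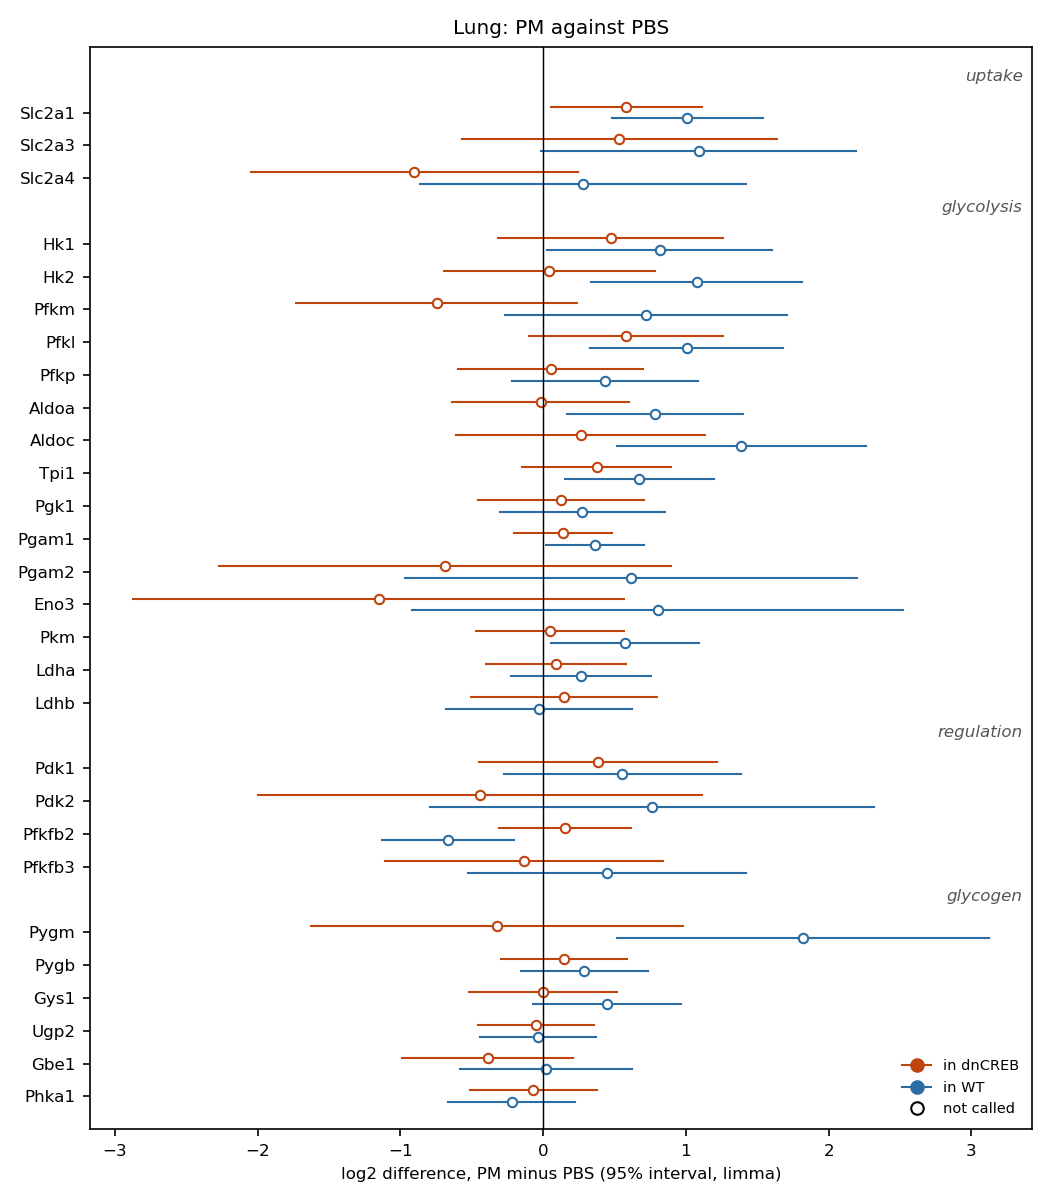
Log2 difference of PM minus PBS lungs for the 28 members tested, with 95% intervals from limma, in dnCREB (red) and WT (blue) mice, 3 arrays per group; open points did not pass the adjusted p threshold. Most WT points lie right of 0, with Pygm at 1.82, and the dnCREB points lie on both sides.

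In dnCREB lungs PM differed from PBS for 0 of 28 members, where 0.00862% of all genes passed, and 1 had an unadjusted p under 0.05, where 9.72% of all genes had. PM and PBS did not overlap for 3 members, all higher, where 29.1% of all genes did not. The median difference was 0.05, where that of all genes was 0.07, and 16 of 28 were above 0. The 3 members with the smallest p were Slc2a1 at 0.58 (adjusted p = 0.467), Pfkl at 0.58 (adjusted p = 0.584) and Slc2a4 at -0.90 (adjusted p = 0.616). Slc2a1 read 9.07, 9.28 and 9.84 in dnCREB PM lungs, against 8.76, 9.10 and 8.58 in dnCREB PBS lungs, with overlap. The test of the difference between the PM effects, dnCREB minus WT, passed for 0 of 28 members, where 0.00862% of all genes passed. It was below 0 for 25 of 28, with a median of -0.43, where that of all genes was -0.03, and was -0.43 for Slc2a1 (95% interval -1.18 to 0.32). The median of the members was -0.26 without WT PM replicate 2, -0.23 with array weights and -0.11 without the 5 arrays with high skeletal muscle genes. An unadjusted p under 0.05 was reached by 5.22% of all genes and 3 members, Pfkfb2 at 0.82, Pygm at -2.15 and Pfkm at -1.47, with an adjusted p of 0.831 each.

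Between dnCREB and WT lungs, 0 of 28 members passed with PM, where 0% of all genes passed, and 0 of 28 with PBS, where 0.0259% passed, and 2 had an unadjusted p under 0.05 in each, where 3.97% of all genes had with PM and 5.42% with PBS. The genotypes did not overlap for 1 member with PM, where 8.34% of all genes did not, and for 3 with PBS, where 13.8% did not. With PM the smallest p were those of Aldoc at -1.01, Pfkfb2 at 0.49 and Pkm at -0.44 (adjusted p = 0.901 each). With PBS they were those of Pygm at 1.99 (adjusted p = 0.704), Pfkm at 1.25 (adjusted p = 0.843) and Pfkfb3 at 0.79 (adjusted p = 0.875). Pygm read 9.59, 7.94 and 8.88 in dnCREB PBS lungs, against 5.79, 7.43 and 7.23 in WT PBS lungs. Of the 58 other glucose-handling genes tested in the lung, 2 (3.45%) passed for PM in WT mice, Hkdc1 at 1.61 (adjusted p = 0.0400) and Ppp1r3d at 1.83 (adjusted p = 0.0499), and 0 in the other 4 comparisons.

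Of the muscle isoforms, 4 were high on the lung arrays with high skeletal muscle genes. The mean of 14 skeletal muscle genes was 7.44 to 7.81 in 5 lung arrays (dnCREB PM replicate 3, dnCREB PBS replicates 1 and 3, WT PM replicates 1 and 2) and at most 4.16 in the other 7. The 5 arrays lay above the other 7 without overlap for 4 of 28 members, where 0.698% of all genes did so, and below them for 0 of 28, where 0.190% did. Eno3 was 9.99 to 11.05 in the 5 arrays, against 7.87 to 9.19 in the other 7. Pgam2 was 7.31 to 9.06, against 5.76 to 7.15, Pfkm was 8.43 to 9.51, against 6.85 to 8.09, and Pygm was 8.83 to 9.59, against 5.79 to 8.09. The other members overlapped, including Gys1 (7.15 to 7.97, against 6.77 to 7.33), Phka1 (at most 7.55, against 7.63), Hk2 (7.59 to 8.84, against 6.96 to 8.10) and Slc2a4 (4.62 to 6.44, against 3.44 to 4.66). One of the 5, dnCREB PBS replicate 1, was also high in cardiomyocyte genes (mean 10.81, against 8.20 to 9.31 on the other 11 lungs) and adipocyte genes (mean 7.50, against 4.07 to 6.14), and it held the highest Pfkm, Pgam2, Eno3, Pygm and Slc2a4 of the 12 lungs. Without the 5 arrays, which leaves 1 WT PM and 1 dnCREB PBS lung, assumed to vary like the other groups, the PM difference in WT was -0.06 for Pfkm, -0.49 for Eno3 and 1.10 for Pygm. On the same arrays it was 0.80 for Slc2a1 (adjusted p = 0.541), 1.06 for Aldoc (adjusted p = 0.426) and 0.91 for Pfkl (adjusted p = 0.672), with a median of 0.25 over the members.

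**Figure D5:**
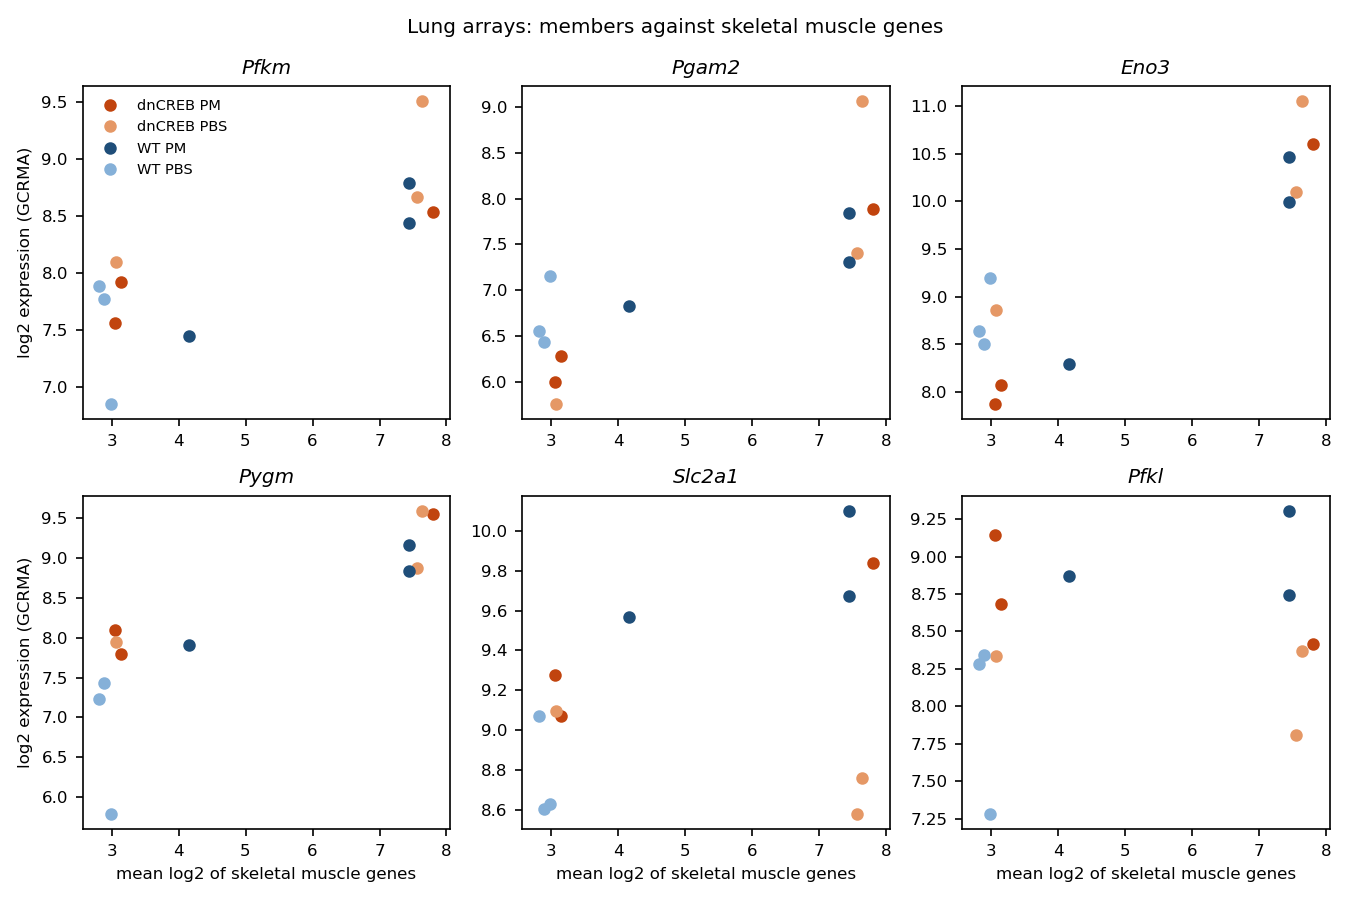
Log2 expression (GCRMA) of 6 members in each of the 12 lung arrays against the mean log2 level of the skeletal muscle genes on the same array, coloured by group. For Pfkm, Pgam2, Eno3 and Pygm the 5 arrays at 7.44 to 7.81 on the horizontal axis lie above the other 7, and for Slc2a1 and Pfkl they do not.

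Of 12 macrophage genes, 3 were higher with PM in WT lungs past the threshold (C1qb, C1qc and Fcgr1), and the summed linear level of the list was 43644 to 55644 in WT PM lungs, against 32240 to 48108 in WT PBS lungs. Of 6 neutrophil genes 0 passed, and their summed level was 13522 to 43933 in WT PM lungs, against 10613 to 31932 in WT PBS lungs. Both sums overlapped between PM and PBS, but the mean log2 levels of the lists did not. The macrophage mean was 10.05 to 10.73 in WT PM lungs, against 8.65 to 9.04 in WT PBS lungs. The neutrophil mean was 8.70 to 10.93, against 7.59 to 8.41. In this comparison 2.39% of all genes passed. The part of these cells in the levels of the glucose genes was not tested.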

How the data were processed

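The deposited table holds log2 expression values that the authors made with GCRMA, per the submitters' processing notes; the GCRMA version and settings are not given in the sources used here. The table has 45037 probe sets, of which 34945 match 1 gene symbol, 932 several and 9160 none in the platform annotation used. Array medians were 3.25 to 3.37 in the heart and 4.09 to 4.19 in the lung, so the tissues were fitted apart. Correlations between arrays were 0.979 to 0.998 in the heart and 0.951 to 0.996 in the lung, and no arrays were identical. With 3 arrays per group, the number of arrays limits the precision.

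From these values, 1 probe set per gene (highest mean over 24 arrays) and genes above log2 4 in at least 3 arrays of the tissue were kept. Means of the 4 groups of a tissue were fitted with limma 3.58.1 in R 4.3.3 (lmFit and eBayes), and p-values were adjusted by Benjamini-Hochberg over all genes tested, with a threshold of 0.05. The 95% intervals are from limma. Percentages of all genes that passed are over the same tested genes. Folds against groups with all arrays under log2 4 are lower bounds against that value. Figures and tables used Python 3.11.15, pandas 2.3.3 and matplotlib 3.10.9. The limma code was tested on simulated data.

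Members that passed are described with every array; where none passed, the 3 with the smallest p are given; of each further list, up to 4 genes that passed with the smallest p are named per comparison. The members, the lists and the tests were chosen with earlier results of these data known. Alternatives were quantile normalisation, centring, another filter (log2 6) or none, other choices of probe set, a fit of the compared groups alone, a replicate block, array weights, a robust variance trend, Xist as a covariate, leaving out each array, and leaving out the lung arrays with high skeletal muscle genes. Promoter windows come from RefSeq, GRCm38.p6. Deviations from the group means of same-numbered arrays correlated at -0.30 to 0.31 over 18 pairs in the heart and -0.33 to 0.33 over 18 pairs in the lung, so the numbers were not taken to pair the samples.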

Additional observations from a re-analysis of the deposited data

Results flagged for a closer look

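With PBS, the genotype difference of 2 muscle isoforms ran in opposite directions in the 2 tissues. Pfkm differed by -0.50 between dnCREB and WT hearts and by 1.25 between dnCREB and WT lungs. Pygm differed by -0.44 in the heart and by 1.99 in the lung. In both genes every dnCREB PBS heart was below every WT PBS heart, and every dnCREB PBS lung was above every WT PBS lung. The difference between the tissues was not tested. The lung values did not pass (adjusted p = 0.843 and 0.704), and dnCREB PBS lungs 1 and 3 are among the 5 arrays with high skeletal muscle genes. Without those 5 arrays the lung differences with PBS were 0.59 for Pfkm and 1.13 for Pygm. These rest on a single dnCREB PBS lung, replicate 2, so they are not differences between groups with a measured spread.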

How the results depend on the processing

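In the heart with PM, 10 members passed, against 5 with the compared groups alone, 3 with Xist as a covariate, and 5 to 11 without 1 array (5 without dnCREB PM replicate 3, 6 without WT PM replicate 2). With PBS, 8 passed, against 4 with no filter, 5 with the compared groups alone, 2 with Xist as a covariate, and 2 to 9 without 1 array (2 without dnCREB PBS replicate 3 or WT PBS replicate 3, 4 without WT PBS replicate 1 or 2). In WT lungs 0 passed for PM, against 1 with the log2 6 filter (Slc2a1, adjusted p = 0.0499), 2 with array weights, 1 with the robust trend, 4 with Xist as a covariate (Aldoa, Aldoc, Pkm and Tpi1), and 0 to 1 without 1 array. In dnCREB lungs 0 passed for PM, against 2 with array weights (Hk1 and Pfkl). The shares of all genes that passed under these alternatives are not set beside the counts. A change in a count therefore cannot be told from a change over all genes. Of 410 values of single genes that passed, 325 kept their side of the threshold under an alternative, 85 lost it and 0 reversed; the causes were not tested. Slc2a4, Hk2, Pfkfb2 and the PM call of Pfkp kept their calls in all 12 fits without 1 heart. With a replicate block, 10 members passed with PM and 6 with PBS in the heart, where Pgam1 and Pygm no longer passed, and 0 in the lung comparisons; same-numbered arrays did not deviate together. With 3 arrays per group, signal near log2 4 limits Slc2a3, whose fold is a lower bound.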
